A study of Mus musculus with 2 samples.

Results

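The genes of the E proteins (Tcf3, Tcf4 and Tcf12) and of their Id inhibitors (Id1, Id2 and Id3) were examined for Tcf1 binding in naïve CD8+ T cells. Every deposited Tcf1 peak was taken whose summit lay in the body of one of these 6 genes or within 50 kb of either end (mm9 coordinates, GENCODE vM1 genes), which gave 27 of the 22286 deposited peaks. Of these, 18 were at the E protein genes and 9 at the Id genes. The peaks came from ChIP-seq with an anti-Tcf1 antiserum on GFP+ TCRbeta+ CD62Lhi CD44lo-med CD8+ cells sorted from mouse spleen, in 1 WT library (36938606 fragments after removal of duplicates) and 1 Tcf1-deficient library (27625250 fragments) that served as the control. The antiserum was raised in rabbits against the full-length protein.

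According to the series' design text, both groups carried hCD2-Cre, a transgene most active in mature T cells, and a Rosa26-lsl-GFP reporter that marks cells with Cre activity, with the Tcf1 and Lef1 genes either wild-type or floxed on both alleles. The genotype label of the control cells is Tcf1-/-Lef1-/-, while their title names Tcf1 alone and the study's methods describe Cd4-Cre+ Tcf7 fl/fl mice, a Cre active from the thymus onwards. The sources therefore do not settle whether the control cells lacked Lef1, and the group is called here Tcf1-deficient. The cells were untreated. By the methods, the mice were young adults of both sexes on the C57BL/6 background, and the number of mice behind each library is not given in the sources used here. The peak list holds no fragment counts over the deleted Tcf7 exons, so the loss of Tcf1 in the control cells was not checked here. With 1 library in each group there was no replicate check, and all intervals given cover counting error only.

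E proteins are basic helix-loop-helix (HLH) transcription factors that bind the E-box, a short palindrome-like DNA sequence, as homodimers or with tissue-specific partners, and they drive lymphocyte development and T cell receptor gene rearrangement. Id proteins carry an HLH domain without the basic, DNA-contacting region, so a dimer of an Id and an E protein does not bind DNA. Id2 and Id3 are known in CD8+ T cells for their parts in effector and memory differentiation. In spite of their names, Tcf3 (the E2A gene), Tcf4 (E2-2) and Tcf12 (HEB) belong to another protein family than Tcf1, an HMG-box factor of the Tcf/Lef family that is encoded by Tcf7.

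All of the 6 genes had at least 1 high-confidence peak, that is one that reached a fold enrichment of 4 with a p-value below 1e-05 and a q-value below 0.05. This did not hold for other limits, since Id2 had 0 at a fold minimum of 8, Id1 had 0 in its body and 50 kb upstream, and both had 0 in the gene body alone. Of the 27 peaks, 25 passed these criteria, against 85.4% of all deposited peaks, and the background for having at least 1 such peak by the same window was 66.5% of 22367 protein-coding genes. Fold enrichment compares the pileup, the count of WT fragments at the summit, with a control level, after 1 is added to both. The control level had a floor of 5.42 fragments, which applied at 86.3% of all high-confidence peaks. Where it applied, the list does not give the control signal around the summit. Tcf12 had 9 high-confidence peaks, Id3 had 6, Tcf3 and Tcf4 had 4 each, and Id1 and Id2 had 1 each. The single peak of the Id1 window lay in an intron of another gene, while 4 of the Tcf12 peaks lay together in an early intron and 2 of them carried the exact Tcf/Lef core.

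Summit sequences of 8 of the peaks follow, read from the mm9 genome at 100 bp to each side of the summit on the plus strand, with bases of annotated untranslated regions left out. Capitals mark matches on either strand to the Tcf/Lef sequences ATCAAAG (the exact core) and AACAAAG, to the E-box CAGGTG, to the E-box CAGCTG, to the Runx core TGTGGTT and to the GC box CCCGCCC. A match on the minus strand appears as the reverse complement. The first pair are neighbouring peaks in intron 3 of Tcf12 and show the Tcf/Lef core in one of them and an E-box and a Runx core in both. The next shows a 2-base repeat at the Tcf12 start, where the control level was not at its floor.
Tcf12 intron 3, 14.5 kb from the start, chr9:71945006-71945206, plus strand: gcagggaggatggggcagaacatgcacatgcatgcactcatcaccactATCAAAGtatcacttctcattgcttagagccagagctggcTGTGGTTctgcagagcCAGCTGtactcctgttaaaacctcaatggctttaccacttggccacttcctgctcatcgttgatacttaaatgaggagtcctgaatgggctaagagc
Tcf12 intron 3, 13.6 kb from the start, chr9:71945974-71946174, plus strand: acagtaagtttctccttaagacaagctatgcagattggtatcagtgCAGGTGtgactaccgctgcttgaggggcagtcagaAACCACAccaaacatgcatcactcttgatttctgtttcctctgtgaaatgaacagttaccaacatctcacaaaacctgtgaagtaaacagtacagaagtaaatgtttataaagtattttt
Tcf12 intron 1, 0.902 kb from the start, chr9:71958642-71958824, plus strand: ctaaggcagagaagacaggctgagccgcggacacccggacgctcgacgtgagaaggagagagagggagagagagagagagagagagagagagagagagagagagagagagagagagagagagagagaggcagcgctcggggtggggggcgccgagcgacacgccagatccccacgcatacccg

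The promoter peaks of Tcf3 and Id2 are shown for their GC boxes in the absence of a Tcf/Lef core. The peaks of Id3 are shown as an upstream site with a Tcf/Lef form beside a Runx core, and as the strongest of its window with an E-box next to the summit. The peak of the Id1 window is shown because it was the strongest within 50 kb of any Id gene and held none of the sequences searched.
Tcf3 promoter, chr10:79896739-79896939, plus strand: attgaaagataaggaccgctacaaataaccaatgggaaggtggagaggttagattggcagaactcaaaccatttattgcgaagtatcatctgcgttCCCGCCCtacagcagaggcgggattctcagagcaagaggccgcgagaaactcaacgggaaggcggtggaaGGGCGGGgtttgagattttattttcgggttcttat
Id2 promoter, upstream part, chr12:25780958-25781078, plus strand: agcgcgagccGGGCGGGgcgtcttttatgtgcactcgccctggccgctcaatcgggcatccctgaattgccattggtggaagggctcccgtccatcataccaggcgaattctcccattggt
Id3, 42.9 kb upstream, chr4:135656372-135656572, plus strand: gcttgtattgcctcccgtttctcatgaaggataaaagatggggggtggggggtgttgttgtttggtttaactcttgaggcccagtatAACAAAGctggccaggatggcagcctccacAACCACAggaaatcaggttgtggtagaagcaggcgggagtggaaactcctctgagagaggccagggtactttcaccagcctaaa
Id3, 4.48 kb downstream of the start, chr4:135703790-135703990, plus strand: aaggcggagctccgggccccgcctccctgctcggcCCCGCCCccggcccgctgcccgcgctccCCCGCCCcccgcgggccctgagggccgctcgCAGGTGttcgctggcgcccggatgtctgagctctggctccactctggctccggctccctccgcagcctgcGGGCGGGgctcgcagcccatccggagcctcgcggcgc
Id1 window, in Bcl2l1, chr2:152601206-152601406, plus strand: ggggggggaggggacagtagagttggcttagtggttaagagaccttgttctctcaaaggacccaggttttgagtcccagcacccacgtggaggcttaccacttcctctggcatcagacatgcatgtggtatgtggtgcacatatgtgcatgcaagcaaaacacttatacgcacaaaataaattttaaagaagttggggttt

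**Figure D1:**
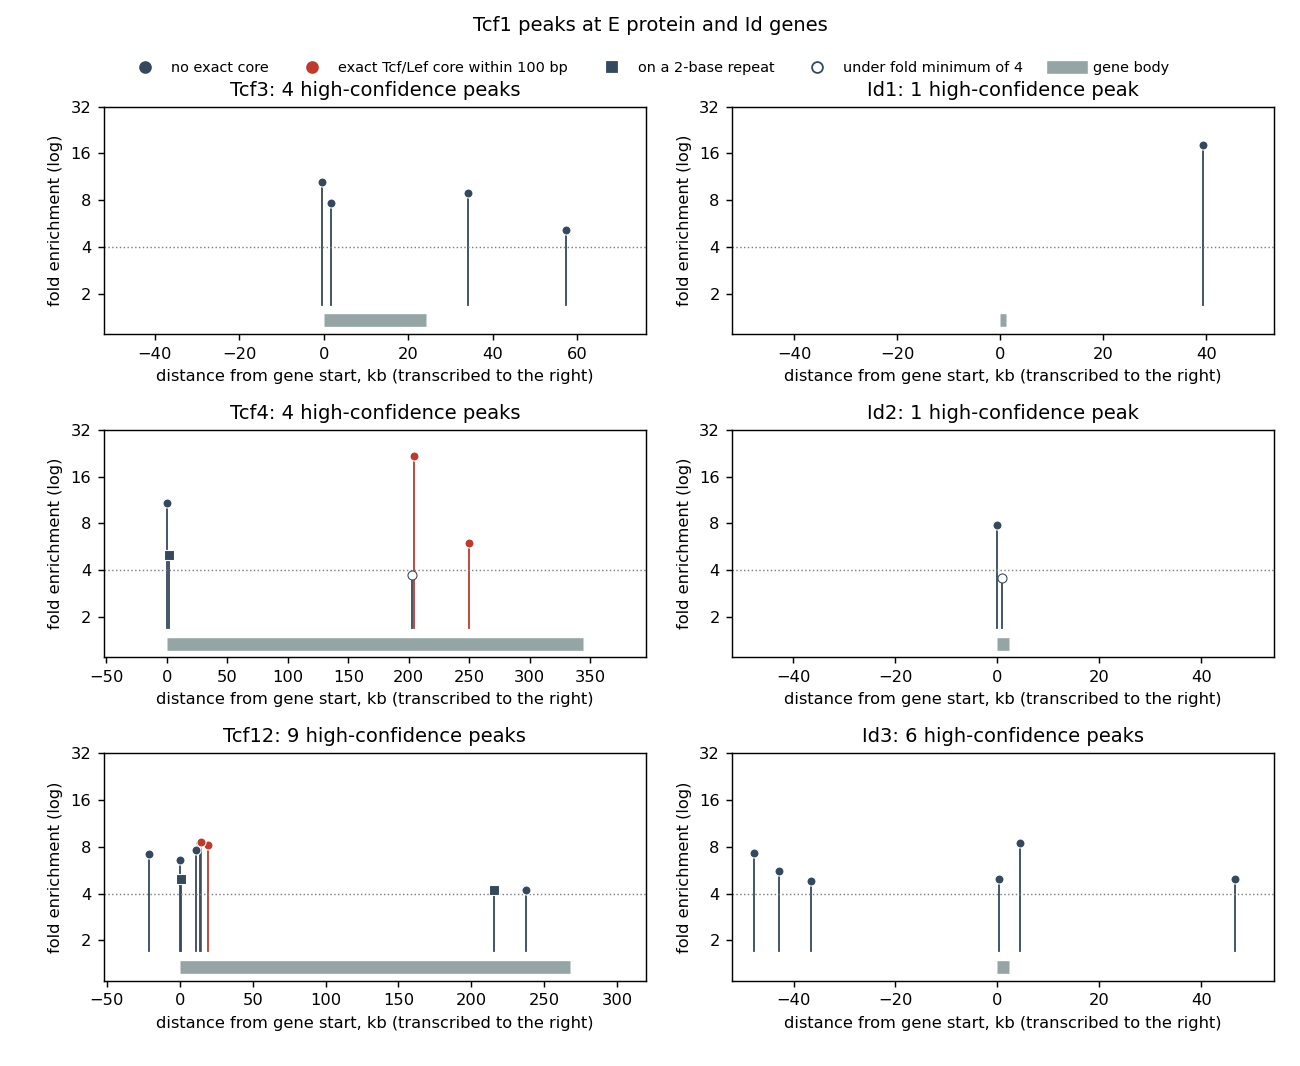
Each panel plots the fold enrichment (log axis) of every deposited Tcf1 peak against the distance of its summit from the gene start in kb, with transcription to the right and the gene body as a grey bar. Filled circles and squares are high-confidence peaks, squares lie on a 2-base repeat, red marks the exact Tcf/Lef core, open circles are the peaks under the fold minimum of 4 (dotted line). The peaks of Tcf12 gather near its start, the largest fold enrichment (21.8) stands in the middle of Tcf4, and the single high-confidence peak of Id1 stands 39.3 kb from its start.

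Tcf12 (ENSMUSG00000032228.8, chromosome 9, 71692059 to 71959626, minus strand), the gene of HEB, had the most peaks within 50 kb, although with windows of 100 kb Id3 had 10 and Tcf12 still 9. Its 9 high-confidence peaks exceeded the number at 96.9% of protein-coding genes. The gene is long (268 kb), and per 100 kb of window it had 2.45 peaks, which exceeded 72.5% of genes. Their pileups ran from 26 to 54 fragments, with a median of 47, and their fold enrichments from 4.21 to 8.57. None of the 9 was therefore among the stronger peaks of the list, whose upper quartile began at a fold enrichment of 10.6.

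Within Tcf12, 4 peaks lay together in intron 3. In order along the chromosome their pileups were 52, 54, 53 and 48 fragments. Their fold enrichments were 8.26, 8.57, 8.41 and 7.63, and the 95% Poisson intervals spanned 5.67 to 11.1 in all, so the 4 did not differ beyond counting error. Of the 4, 2 carried the exact core. In the one at 71944878 to 71945261, printed above, the core lay 49 bp from the summit, and a Runx core and the E-box CAGCTG stood 9 and 7 bp from the summit, on opposite sides of it. The neighbour 0.968 kb away (71945909 to 71946346) had no Tcf/Lef form but the E-box CAGGTG and a Runx core. The fourth (71948114 to 71948573) had the related form TTCAAAG as its single match.

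At the Tcf12 start site the peak at 71959449 to 71959994 had a pileup of 41 and a fold enrichment of 6.54 (4.74 to 8.82), with a pair of GC boxes and no core. A second peak in intron 1, 0.902 kb from the start (71958537 to 71959058), had a pileup of 47 but a fold enrichment of 4.95 (3.67 to 6.55), because the control level there was 8.69 fragments. At this peak a repeat of GA units ran without a break for 62 bp. The annotation gives Tcf12 a second, inner start site. A peak 215 kb into the gene (71743870 to 71744373), 0.357 kb upstream of that start, had a pileup of 26 and a fold enrichment of 4.21 (2.80 to 6.09), the pileup being close to the 25 fragments that a fold enrichment of 4 required, and it too lay on a 2-base repeat (42 bp). The last peak of the gene body, in intron 13 (71722060 to 71722293), had the same pileup and carried the one ETS core, CGGAAGT, of all 25 peaks. Upstream, a peak at 21.4 kb from the start (71980859 to 71981264) had a fold enrichment of 7.17.

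Tcf4 (ENSMUSG00000053477.9, chromosome 18, 69503800 to 69847621, plus strand), the gene of E2-2, held the strongest peak within 50 kb of any of the 6 genes. This peak lay in intron 6, 204 kb from the gene start (69707451 to 69708045), where 139 WT fragments stood against a control level at the floor of 5.42. Its fold enrichment was 21.8 (18.4 to 25.7), above 93.3% of all high-confidence peaks. It carried the exact core in 2 copies, 3 and 33 bp from the summit and both on the minus strand. A weaker deposited peak 0.978 kb away (69706702 to 69707021), with a pileup of 23 and a fold enrichment of 3.74 (2.43 to 5.53), fell under the fold minimum, within counting error of it.

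The other high-confidence peaks of Tcf4 lay at annotated start sites. At the first exon (69503795 to 69504345), where the summit lay in its untranslated part, the pileup was 69 and the fold enrichment 10.9 (8.52 to 13.8), with GC boxes and no core. A peak 1.34 kb further on (69505212 to 69505562), at the start of a later transcript, had a pileup of 31 and a fold enrichment of 4.99 (3.44 to 7.01). It lay on a 2-base repeat of 44 bp. The remaining peak (69752803 to 69753322) lay 0.096 kb from the start of a shorter protein-coding transcript, in intron 8 of the long one. It had a pileup of 41 and a fold enrichment of 5.99 (4.34 to 8.07), and it was the only one of the promoter peaks of the 6 genes with the exact core, 37 bp from the summit. Tcf4 had 0.901 high-confidence peaks per 100 kb of window, more than 46.0% of protein-coding genes.

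Tcf3 (ENSMUSG00000020167.8, chromosome 10, 79872259 to 79896392, minus strand), the gene of the E2A proteins, had no peak with the exact core or another of the Tcf/Lef forms. The strongest was at the promoter, 0.447 kb upstream of the start (79896109 to 79897248), with a pileup of 66 and a fold enrichment of 10.4 (8.11 to 13.2). A second peak, in intron 1 and 0.904 kb upstream of the start of a later transcript (79894575 to 79895050), had a pileup of 48 and a fold enrichment of 7.63 (5.67 to 10.1). Both held a GC box. Their intervals overlapped.

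The other 2 peaks of the Tcf3 window belonged by position to other genes. One lay 0.104 kb upstream of the start of Mbd3, which encodes a subunit of the NuRD chromatin remodelling complex (79861457 to 79862697, pileup 56, fold enrichment 8.88). The other lay nearest the start of Gm15124 (79838939 to 79839266, pileup 32, fold enrichment 5.14).

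Id3 (ENSMUSG00000007872.3, chromosome 4, 135699412 to 135701670, plus strand) had the most peaks of the Id genes. Its 6 high-confidence peaks came to 5.87 per 100 kb of window, the highest density of the 6 genes and more than 95% of protein-coding genes. This order depended on the fold minimum, since at a minimum of 8 Id3 had 1 peak in its window of 102 kb and Tcf3 had 2 in 124 kb. They were of modest height, with pileups of 30 to 53 fragments and fold enrichments of 4.83 to 8.41. The strongest (135703622 to 135704062) lay 4.48 kb downstream of the gene start, beyond the annotated end, with a pileup of 53 and a fold enrichment of 8.41 (6.34 to 11). Its window was 80.6% GC, and the E-box CAGGTG lay 3 bp from the summit. The promoter peak (135699572 to 135699869), in the untranslated part of exon 1, had a pileup of 31 and a fold enrichment of 4.99 (3.44 to 7.01), with GC boxes and no core.

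Upstream of Id3, 3 peaks lay within 11.1 kb of each other, with summits 47.7, 42.9 and 36.6 kb from the start. Their pileups were 46, 35 and 30 fragments and their fold enrichments 7.32 (5.40 to 9.72), 5.61 (3.95 to 7.74) and 4.83 (3.31 to 6.83), with intervals that overlapped. None had the exact core, but all 3 had a related form (TTCAAAG in the first and the last, AACAAAG in the middle one), and the 2 nearer to Id3 also had a Runx core, 20 and 15 bp from the summit. The peak at 47.7 kb held CAGGTG in 2 copies. Its nearest protein-coding start was that of Rpl11, a ribosomal protein gene, while that of the other 2 was Id3. The last peak of the window, 46.7 kb downstream of the Id3 start, was in intron 6 of E2f2, a cell cycle transcription factor gene (135745879 to 135746196, pileup 31, fold enrichment 4.99).

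Id2 (ENSMUSG00000020644.8, chromosome 12, 25778666 to 25780957, minus strand) had peaks at its start only. The high-confidence peak (25780701 to 25781349) had its summit 0.021 kb upstream of the start site, with a pileup of 49 and a fold enrichment of 7.79 (5.80 to 10.2), a GC box 7 bp from the summit and no core. A weaker peak in intron 2 (25779999 to 25780295), 0.893 kb from the start, had a pileup of 22 and a fold enrichment of 3.58 (2.30 to 5.35) and fell under the fold minimum. It held a Runx core. The first summit beyond the window on the downstream side, 80.5 kb past the gene end (25697860 to 25698448), was stronger than either. It had a fold enrichment of 23.5 and the exact core, and its nearest start site was that of Kidins220.

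Id1 (ENSMUSG00000042745.9, chromosome 2, 152561987 to 152563146, plus strand) had no deposited peak in its body or at its promoter. The single peak of its window (152600930 to 152601633) stood 39.3 kb from the Id1 start, with a pileup of 115 and a fold enrichment of 18.1 (14.9 to 21.7), above 90.2% of all high-confidence peaks. By annotation it lay in intron 2 of Bcl2l1, which encodes the survival protein Bcl-xL, 56.1 kb from the start of that gene, and its nearest protein-coding start was that of Cox4i2, 20.5 kb away. It held no Tcf/Lef form, E-box of either form, Runx or ETS core. When the printed sequence was searched against the mm9 genome, 107 other matches of at least 100 bases were found (BLAST e-value limit 1e-10). Of the 25 high-confidence windows, 19 had no other match and 2 had 1. The other 4 were this one and the 3 on 2-base repeats. The search was not run over all high-confidence peaks, so no background for these counts is known.

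**Figure D2:**
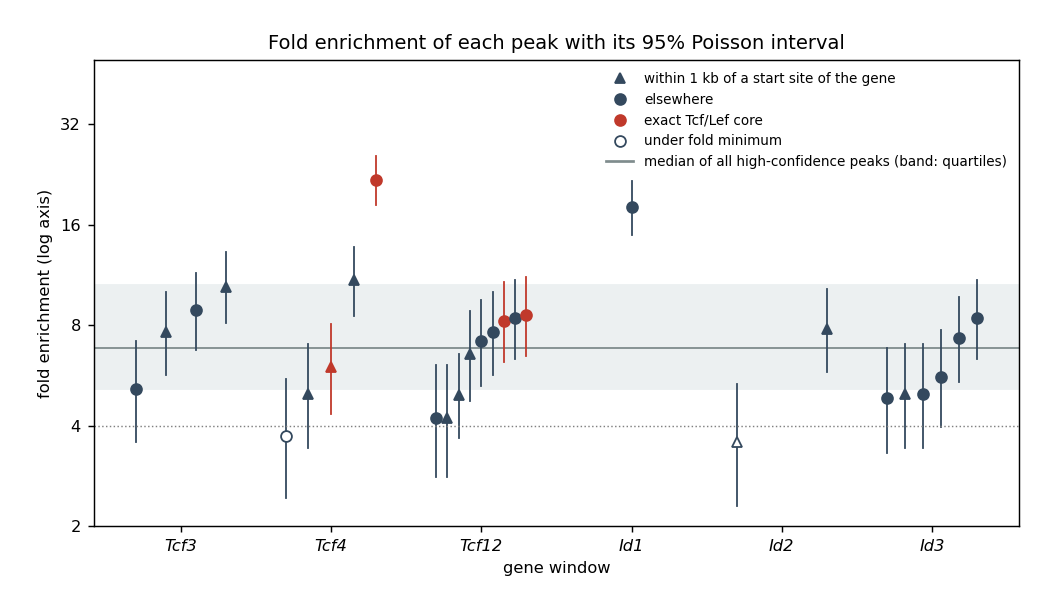
Fold enrichment (log axis) of each deposited peak, by gene window, with its 95% Poisson interval from the pileup. Triangles lie within 1 kb of a start site of the gene, red marks the exact Tcf/Lef core, open symbols are under the fold minimum, and the grey line and band are the median (6.86) and quartiles (5.14 to 10.6) of all 19042 high-confidence peaks. The peaks in Tcf4 intron 6 and in the Id1 window stand above the others, and their intervals overlap each other.

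The 25 high-confidence peaks had a median fold enrichment of 7.32 (range 4.21 to 21.8), beside 6.86 over all 19042 high-confidence peaks. The median pileup was 47 fragments, beside 44, and the median width 460 bp, beside 484. The control level was at its floor at 23 of the 25 peaks (92%, background 86.3%), so their fold enrichment followed the pileup alone. The exceptions were Tcf12 intron 1 and the inner start of Tcf4, where the control level was 6.02. At 9 of the 25 peaks the lower bound of the interval was under the fold minimum of 4. The peaks of Tcf4 intron 6 and the Id1 window were the only ones over a fold enrichment of 12, the next being 10.9 with an upper bound of 13.8.

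Of the 17 high-confidence peaks of the E protein genes, 12 were in the gene body and 4 carried the exact core. Of the 8 peaks of the Id genes, which are short, 1 was in the gene body and 0 carried the core. Over all high-confidence peaks the core was found at 10.2%, and with 8 peaks a count of 0 is near this share. A gene-body share over all peaks was not computed. The counts by gene group are from 1 list, and no test of the difference was run. The median fold enrichment was 7.63 for the E protein genes and 6.47 for the Id genes, with ranges that overlapped (4.21 to 21.8 and 4.83 to 18.1).

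**Figure D3:**
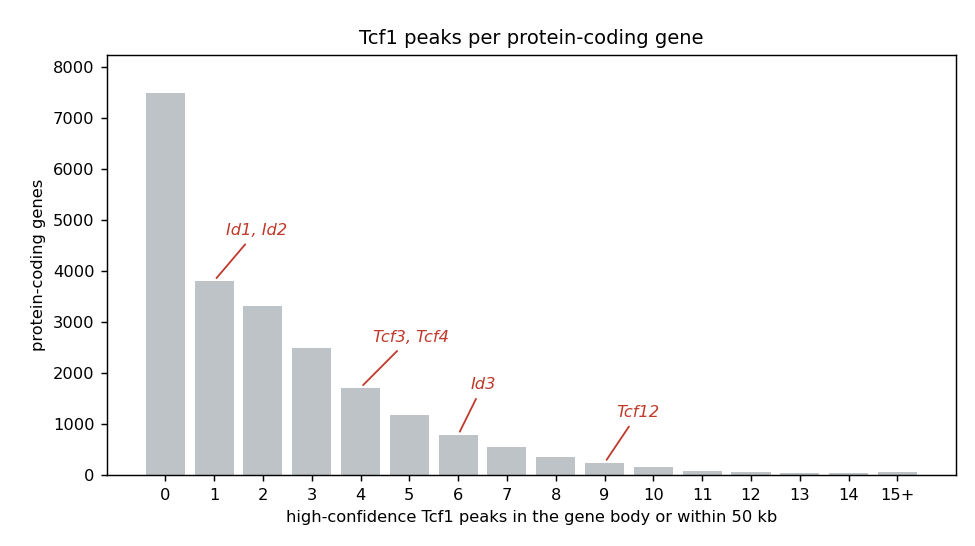
Number of protein-coding genes (y axis) by the number of high-confidence Tcf1 peaks in the gene body or within 50 kb (x axis, 15 and more pooled). Id1 and Id2 sit at 1 peak, the median over all genes, and Tcf12, with 9, lies above 96.9% of genes.

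A peak in the window of a gene need not be nearest to it. For 16 of the 25 high-confidence peaks (64.0%, Wilson interval 44.5 to 79.8) the nearest annotated start site was of one of the 6 genes. For 7 of the other 9 it was that of a noncoding RNA or pseudogene, and counting protein-coding starts alone, 20 of 25 were nearest to one of the 6 genes. Promoter peaks, within 1 kb of any annotated start, made up 11 of 25 (44.0%, 26.7 to 62.9), with a background of 39.6%. Of these 11, 10 were at a start of one of the 6 genes and 1 was that of Mbd3. Of the 6 genes, only Id1 had no promoter peak, and 32.9% of protein-coding genes had one at a start of their own.

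The fold enrichments of the 10 promoter peaks of the 5 other genes ran from 4.21 to 10.9, with a median of 6.26, beside 6.54 over all promoter peaks. Of the 25 high-confidence peaks, 3 lay on an unbroken 2-base repeat of at least 30 bp (12%, background 4.17%), all of them promoter peaks in Tcf4 and Tcf12. The part of such repeats in the pileups was not tested. The GC box CCCGCCC, the binding sequence of Sp/Klf factors, was found at 7 of the 11 promoter peaks with that of Mbd3 included (63.6%, 35.4 to 84.8), an interval that spanned the 37.1% of all promoter peaks. None of the 11 held a Runx core (background 6.10% of all promoter peaks), an ETS core (13.3%), CAGGTG (11.3%) or CAGCTG (9.90%), and with 11 peaks a count of 0 is near these shares.

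The exact Tcf/Lef core lay within 100 bp of 4 of the 25 summits (16%, Wilson interval 6.40 to 34.7), with a background of 10.2% of all high-confidence peaks. In the 50 flanking windows 2 kb to either side it was found once, that is in 2%. The 4 peaks with the core were 2 in Tcf12 and 2 in Tcf4, with a median fold enrichment of 8.41, beside 8.57 over all 1940 peaks with the core. When the form TTCAAAG, the form AACAAAG or the form TACAAAG was accepted beside the exact core, 10 of 25 peaks held a form (background 28.3%), 7 at E protein genes and 3 at Id3, and so did 26.0% of the flanks. The Wilson intervals of both shares spanned their backgrounds.

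E proteins bind E-boxes, of which only the forms CAGGTG and CAGCTG were searched. One of these was found at 6 of the 25 summits. The 6 were among the 14 distal peaks, and over all high-confidence peaks CAGGTG was found at 16.6% of distal and 11.3% of promoter peaks and CAGCTG at 13.7% and 9.90%. CAGGTG was found in 4 peaks (16%, background 14.5%), in Tcf12 intron 3 and in the Id3 window, and CAGCTG in 2 (8%, background 12.2%), in intron 3 and upstream of Tcf12. Over all high-confidence peaks CAGGTG was as frequent in the flanks (14.4%) as at the summits, and CAGCTG was found in 8.89% of the flanks. The Runx core was found at 4 peaks (16%, background 15.5%), 2 in Tcf12 intron 3 and 2 upstream of Id3, and at both peaks under the fold minimum. The ETS core was found at 1 peak (4%, background 6.93%) and the GC box at 9 (36%, background 17.8%). A match gives the letters only and does not show that a factor was bound.

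**Figure D4:**
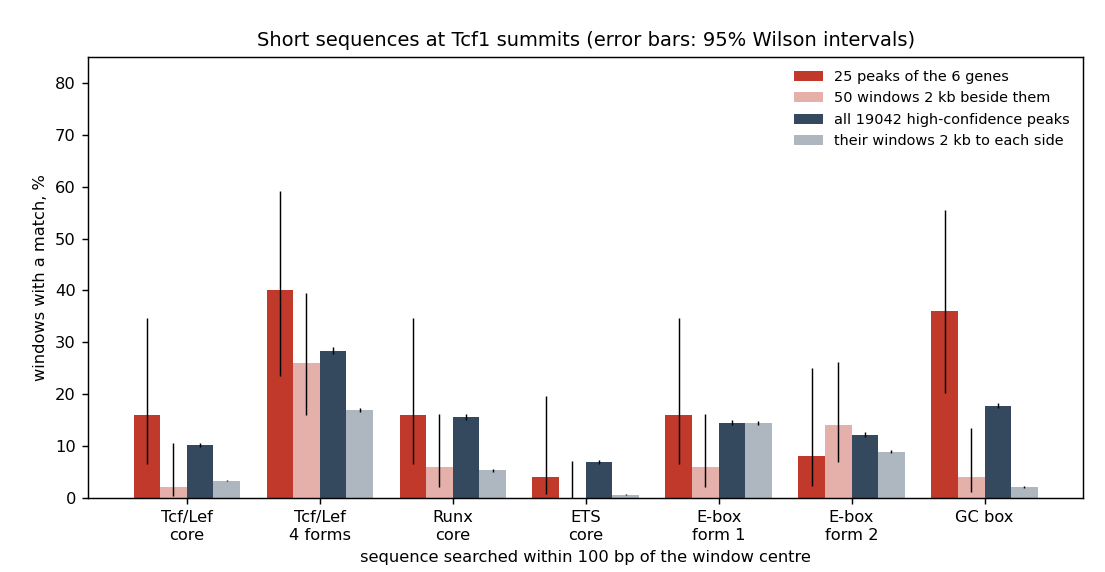
Share of windows of 100 bp to either side (y axis, %) that hold each sequence (x axis), for the 25 high-confidence peaks of the 6 genes, windows 2 kb to their sides, all 19042 high-confidence peaks and their side windows, with 95% Wilson intervals. E-box form 1 is CAGGTG and form 2 is CAGCTG. The intervals of the 25 peaks reach or span the shares of all peaks except for the GC box (20.2% to 55.5%, against 17.8%). The GC box was searched for after the data were seen, and 7 of the 9 peaks that held it were promoter peaks. Of all promoter high-confidence peaks, 37.1% held it.

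Another high-confidence peak stood within 10 kb of 15 of the 25 summits (60.0%, 40.7 to 76.6), with a background of 49.1% that lay inside this interval. These were the promoter peaks of Tcf3, those at the Tcf4 and Tcf12 starts, Tcf12 intron 3, and 5 of the 6 at Id3. The peak of Id2 was the most isolated, with its nearest high-confidence neighbour 82.8 kb away, followed by that in the Id1 window, 56.1 kb from its neighbour.

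With windows of 100 kb in place of 50 kb the number of high-confidence peaks was 36, with 3 at Id1, 4 at Id2, 10 at Id3 and 6 at Tcf3, while Tcf4 and Tcf12 stayed at 4 and 9. For Id3, the first summit inside the upstream edge was 47.7 kb from the gene (fold enrichment 7.32) and the first outside it 54.3 kb (fold enrichment 7.63). For Id1 the summit inside was 38.2 kb beyond the gene end (18.1), and the next ones outside were 94.3 kb beyond it (7.98) and 66.8 kb on the upstream side (7.32). For Tcf3 the summits just outside were at 73.3 kb (4.21) and 128 kb (7.17). For Tcf4 and Tcf12 the nearest summit outside lay 276 kb and 149 kb beyond the gene (4.36 and 5.45).

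Other genes of the E protein and Id pathway were counted by the same window. Of 22 such genes, 17 had at least 1 high-confidence peak, with a background of 66.5%, and 11 had one at their own promoter, with a background of 32.9% of protein-coding genes. Among HLH partners and relatives 2 of 6 had a peak. Lyl1, a partner of E proteins, had 9, the strongest at a fold enrichment of 14.0, and Bhlhe40, a repressor of the same superfamily, had 2, while Id4, Tal1, Tal2 and Bhlhe41 had 0. No peak of Lyl1 was at its own promoter.

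All 4 E-box repressors had peaks (3 to 5 each), and Zeb1, which represses E-box genes in T cells, had 3, the strongest at a fold enrichment of 14.8 and nearest to the start of Gm16147. Of the cofactors, 7 of 8 had a peak. Lmo2, the LIM-only adaptor that joins E protein complexes, had 2, with the strongest at 38.2, higher than the strongest peak of any of the 6 genes, and Ep300, a histone acetyltransferase gene, had 4, with the strongest at 20.9 and nearest to the start of Gm5218. Runx1t1, a corepressor gene, had 0. The regulators of Id genes or proteins all had a peak. Egr2 and Egr3, zinc finger genes induced by the T cell receptor that raise Id3, had 4 and 5, with the strongest at 26.6 and 15.1, and Usp1, whose product removes ubiquitin from Id proteins, had 1 at its promoter with a fold enrichment of 9.82.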

How the data were processed

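Tcf1 ChIP-seq was analysed from the 1 deposited peak list. Per the submitters' processing notes and the methods, reads were aligned to mm9 with Bowtie2 version 2.2.5, and peaks were called once with MACS2 version 2.1.1, WT against Tcf1-deficient, with no replicates. The deposited signal (pileup) is unscaled WT coverage at the summit in fragments. The deposited fold enrichment is a ratio with a pseudocount of 1. The deposited −log10 p-value and q-value come from a Poisson test of the WT pileup against the control level, not of genotypes. Where that level was at its floor they followed the WT pileup alone.

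The control level was computed back from pileup and fold enrichment, with a floor of 5.42 fragments. All 22286 peaks lay within the chromosomes of NCBIM37, the mm9 reference, which was used with GENCODE vM1. Intervals are 95% Poisson (pileup) or Wilson (shares). Python 3.11.15, pysam 0.24.0, scipy 1.17.1 and BLAST 2.17.0 were used, and counting was tested on simulated data. Tables of another build were not used for coordinates. The position-weight matrix of the study was not used here, and not every summit sequence is printed.

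The 6 genes, the pathway lists and the sequences searched were chosen with earlier results of these data known. Described in full were each gene's strongest peak, its promoter peaks and those with the exact core, except that 1 Tcf12 peak with the core is given only among the group in intron 3. Other peaks given singly were chosen after their values were seen. The search for 2-base repeats, the GC box and the BLAST search were added after the data were seen, and 2 sequences beyond that rule (Tcf12 at 13.6 kb and Id3 at 42.9 kb) were printed. Alternatives changed the fold minimum, q limit, window, motif, promoter width and start sites.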

Additional observations from a re-analysis of the deposited data

How the results depend on the processing

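Of 79 values recomputed under alternatives for 11 results, 57 stayed within 1.5 times (counts) or within the interval of the value reported (medians and shares), and 22 did not, of which 15 were counts at single genes. The number of high-confidence peaks was 9 at a fold minimum of 8 and 13 in gene bodies alone. Their median fold enrichment was 8.88 at a fold minimum of 8 and 8.49 with no pseudocount. The share with the core was 40.0% with any of the 4 forms accepted. The share nearest to one of the 6 genes was 92.3% in gene bodies alone and 80.0% by protein-coding starts. These moves follow from the construction of each alternative.

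With windows of the gene body and 50 kb upstream, Id1 had 0 high-confidence peaks, Tcf3 2 and Id3 4. At a fold minimum of 8, Id2 had 0, Id3 1 and Tcf12 3. Without the 3 peaks on a 2-base repeat, an alternative chosen after seeing the data, 22 peaks were left with a median of 7.63 and a promoter share of 36.4%. A pileup of 25, needed for a fold enrichment of 4 at the control floor, has a Poisson interval of 16.2 to 36.9, which limits what the weaker peaks show. No paired analysis was possible because each group had 1 library.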
